A study of Mus musculus with 6 samples.

Results

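The NF-κB genes described here are 10 rows of the deposited gene table, *Nfkbia*, *Nfkbib*, *Nfkbie*, *Nfkbiz*, *Bcl3*, *Nfkb1*, *Nfkb2*, *Rela*, *Relb* and *Tnfaip3*, taken by matching Ensembl mouse gene identifiers to these symbols, and all 10 were found among the 24016 genes of the table. RNA-seq was performed on MC3T3-E1 subclone 4 cells, a clonal preosteoblast line from mouse calvaria with the genotype labelled WT. Osteogenic medium, containing 50 μg/ml ascorbic acid together with 10 mM β-glycerophosphate, was given for 6 days to all 6 cultures. Corticosterone, which is the principal murine glucocorticoid, was then applied to 3 cultures at 100 nM over 24 h and vehicle to the other 3, and the sample labels list 10 nM calcitriol for both groups. Since these are cells of 1 clone in bulk culture, a shift between cell states and a change in RNA per cell cannot be told apart.

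Values are normalized counts, that is, reads per gene divided by 1 size factor per library. Reads on genes ranged from 19076586 to 25638645 per vehicle library and from 16020401 to 18992332 per corticosterone library. All 6 genes of a glucocorticoid response list, *Tsc22d3*, *Fkbp5*, *Sgk1*, *Per1*, *Dusp1* and *Klf9*, rose, with a median log2 fold change of 2.00. The 7 osteoblast markers were all measured, and their summed normalized count, mostly *Col1a1* and *Spp1*, lay between 807840 and 835170 with vehicle and between 746010 and 787680 with corticosterone. *Spp1* rose and the other 6 of these markers fell, of which *Runx2*, *Sp7* and *Bglap* kept their calls in all 20 alternative settings. *Col1a1* lost its call in 4 of 6 single-library omissions and *Alpl* in 3, and *Spp1* lost it with upper-quartile scaling. Of 6 myeloid markers, *Cd14*, *Csf1r* and *Lyz2* were measured, with sums of 310.3 to 357 and 264 to 312 in the same order. For 5 chondrocyte markers, of which 4 were measured, the sums were 3492 to 3907 and 2889.7 to 2935. Endothelial markers (3 of 5 measured) summed to at most 53.7 in any library and adipocyte markers (1 of 5 measured) to at most 2.56. *Ptprc*, *Adgre1*, *Itgam*, *Cdh5*, *Kdr* and *Adipoq* were not analysed here. The chondrocyte sums were thus lower in every corticosterone library, and the myeloid sums overlapped by less than 2 counts. *Lyz2*, which made up most of the myeloid sum, fell with a log2 fold change of -0.37 (limma adjusted p = 0.020), a call lost in 4 of 6 single-library omissions, and *Csf1r* was below in every corticosterone library without passing. Stretches of 31 bases also found in another gene's transcripts made up 62.9% of *Bglap* and 32.8% of *Lyz2*, so counts of both are less certain. The part of these markers in the results below was not tested.

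NF-κB is a dimer of REL-domain proteins that is held in the cytoplasm by inhibitors of the IκB family until an inflammatory signal makes an IκB kinase mark the inhibitor for destruction. The freed dimer enters the nucleus and activates genes of inflammation and survival, among them the genes of its own inhibitors and subunits, which gives the pathway its feedback. Glucocorticoids are known to restrain NF-κB signalling, and in bone the pathway is known for its role in inflammatory bone loss and in signalling through RANK in osteoclasts. The comparison asks how the transcripts of the pathway's own components stood after corticosterone. Protein amounts and nuclear entry were not measured.

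Promoter windows of 300 bases, from 250 bases before to 50 bases after an annotated transcription start, were taken from RefSeq (GRCm38.p6), and 7 of the 10 genes had at least 1 window, 10 windows in all. Each was searched on both strands for the NF-κB consensus motif, which was present in 7 of these 10 windows and in 5 of the 7 genes, against 8.46% of all 32851 windows. G and C bases made up a median of 52.7% of all windows and 47.0% to 71.3% of these 10. The shares were not matched for this content. Overlapping matches and matches on opposite strands of the same bases were counted as 1 site in the text. With 1 mismatch allowed, all 10 windows had a match, as did 63.2% of all windows. The windows of *Nfkbib* and *Rela* had no consensus match. The glucocorticoid response element was searched only as the exact palindrome of AGAACA and its reverse complement 3 bases apart. It was in 0 of the 10 windows and in 0.009% of all windows. A form this rare cannot tell these genes from others, and palindromes with mismatches were not searched. The hexamer AGAACA alone was in 1 of the 10 windows, the first window of *Tnfaip3*, and in 19.0% of all windows. A set of 4 windows is shown, for an inhibitor that rose, an inhibitor and a subunit that fell, and a subunit that did not pass the test, with each NF-κB consensus match in capitals.
Nfkbia, chr12:55492598-55492897, minus strand: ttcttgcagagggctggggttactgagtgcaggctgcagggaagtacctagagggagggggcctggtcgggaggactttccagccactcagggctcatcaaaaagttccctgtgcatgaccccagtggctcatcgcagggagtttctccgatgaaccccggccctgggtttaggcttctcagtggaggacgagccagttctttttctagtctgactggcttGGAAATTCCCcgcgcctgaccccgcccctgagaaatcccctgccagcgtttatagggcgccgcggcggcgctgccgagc
Nfkbie, chr17:45555450-45555749, plus strand: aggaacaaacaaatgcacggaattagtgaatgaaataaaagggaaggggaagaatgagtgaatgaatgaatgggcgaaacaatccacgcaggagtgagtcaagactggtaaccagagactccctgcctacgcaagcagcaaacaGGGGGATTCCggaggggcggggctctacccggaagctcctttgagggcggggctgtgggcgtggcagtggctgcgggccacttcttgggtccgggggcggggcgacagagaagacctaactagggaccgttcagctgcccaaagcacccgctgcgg
Nfkb2 window 1, chr19:46304487-46304786, plus strand: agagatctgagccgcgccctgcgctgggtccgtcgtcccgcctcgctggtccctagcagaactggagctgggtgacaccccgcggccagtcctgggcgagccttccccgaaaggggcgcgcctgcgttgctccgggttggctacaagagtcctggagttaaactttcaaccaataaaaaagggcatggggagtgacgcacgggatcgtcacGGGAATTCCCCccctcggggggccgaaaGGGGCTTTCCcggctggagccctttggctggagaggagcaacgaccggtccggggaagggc
Rela, chr19:5637291-5637590, plus strand: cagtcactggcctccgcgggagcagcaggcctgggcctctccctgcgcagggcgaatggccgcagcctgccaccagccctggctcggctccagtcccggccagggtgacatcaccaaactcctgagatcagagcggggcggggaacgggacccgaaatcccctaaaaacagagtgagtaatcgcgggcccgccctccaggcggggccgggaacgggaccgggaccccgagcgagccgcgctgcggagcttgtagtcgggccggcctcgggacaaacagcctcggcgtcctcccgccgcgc
The match in *Nfkbia* starts 29 bases before the annotated start and that in *Nfkbie* 106 bases before it. The first window of *Nfkb2* holds overlapping matches from base -39 and another from base -11. Windows 2 and 3 of *Nfkb2* overlap and share the site at base 11 of window 2, which has a further match at base -236. In *Bcl3* the match lies 3 bases into the transcript. The second window of *Tnfaip3* has matches at bases -125 and -12. A match describes letters and not binding. *Nfkbiz*, *Nfkb1* and *Relb* had no window and were not searched. Among called genes with a window, the motif was present in *Nfkbia*, which rose, and in *Nfkbie* and *Nfkb2*, which fell.

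**Figure D1:**
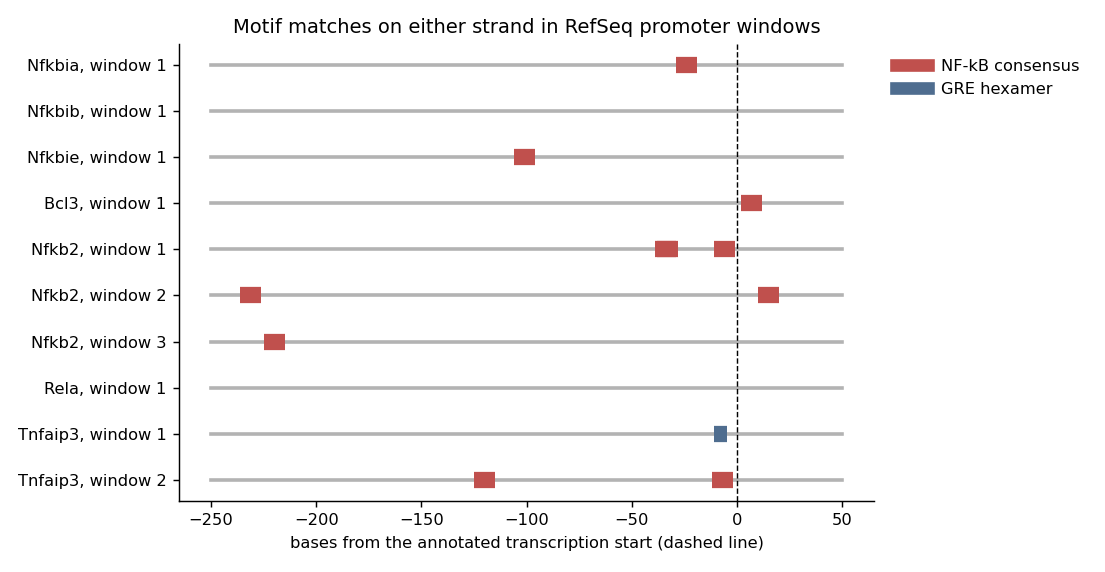
Positions of motif matches on either strand in the 10 RefSeq promoter windows of the 7 genes that had one. The horizontal axis gives bases from the annotated transcription start (dashed line), red blocks the NF-κB consensus and the blue block the hexamer AGAACA. Matches to the consensus fall in windows of *Nfkbia*, *Nfkbie*, *Bcl3*, *Nfkb2* and *Tnfaip3*, and the windows of *Nfkbib* and *Rela* have none.

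The transcripts of NF-κB components moved in both directions. After corticosterone, *Nfkbia*, *Nfkbiz* and *Nfkb1* rose, and *Relb*, *Nfkbie* and *Nfkb2* fell. *Nfkbib*, *Bcl3*, *Rela* and *Tnfaip3* did not pass the test. The test was limma on log2(normalized count + 0.1), with an adjusted p (Benjamini-Hochberg over all 24016 genes) under 0.05. Thus 3 of 10 genes were higher and 3 of 10 lower, against 8.49% and 8.2% of all genes tested. The balance over all genes depended on the scaling, since 2040 genes were higher and 1970 lower as deposited, 1349 and 2595 with upper-quartile scaling, and 1703 and 2521 with libraries set to the same total. Among the 10024 genes with a mean normalized count of at least 141.5, that of the lowest of the 10 genes, 17.4% were higher and 15.6% lower. None of the 10 genes had an absolute log2 fold change over 1, the further cut-off of the study's threshold, which 2.78% of all genes passed in either direction. The median log2 fold change of the 10 genes was -0.17, against -0.01 over all genes tested. In 3 of the 10 genes every corticosterone library exceeded every vehicle library, and in 5 every corticosterone library was below, which was seen in 14.7% and 14.9% of all genes. With count models on the recovered reads, edgeR called 7 of the 10 genes and DESeq2 called 6, against 31.2% and 24% of the genes that each tool gave an adjusted p. Without the variance trend of limma only *Nfkbia* and *Relb* were called among the 10, and with upper-quartile scaling *Nfkbiz* and *Nfkb1* were not called.

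**Figure D2:**
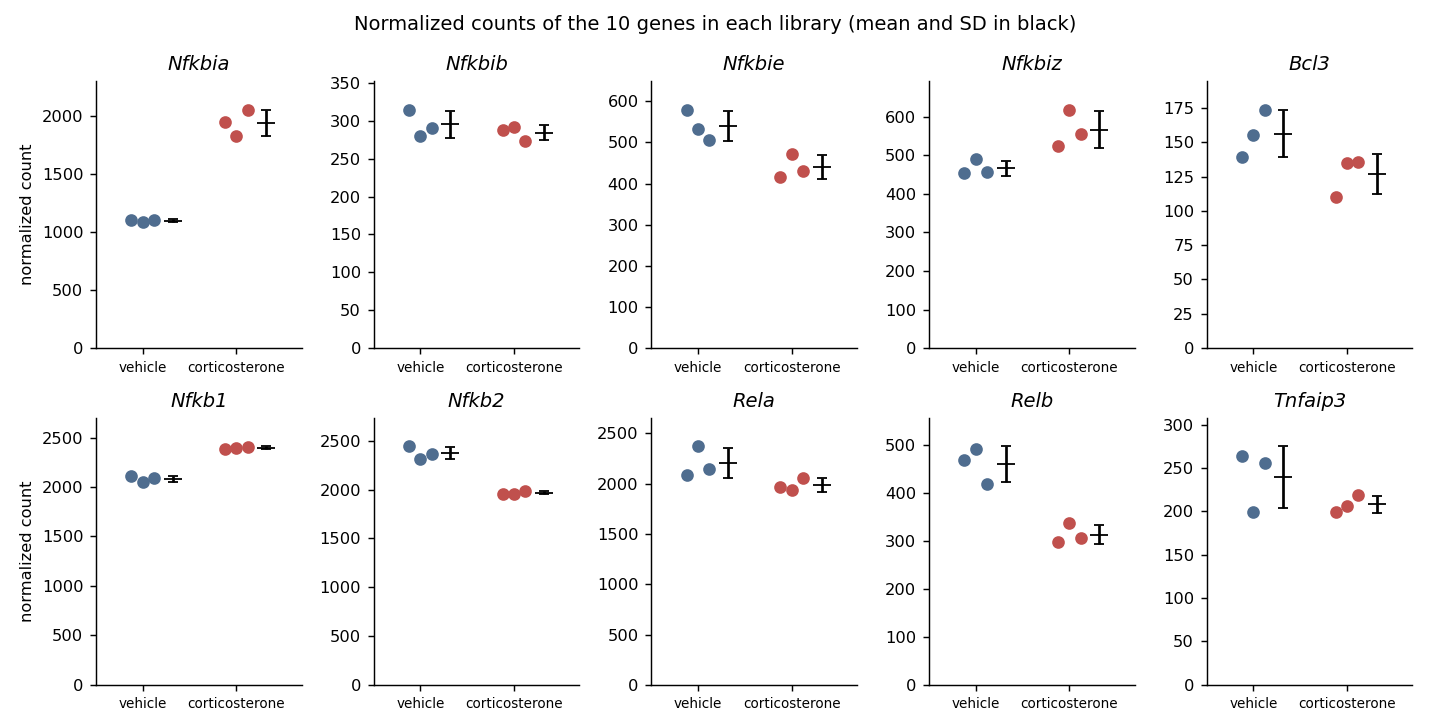
Normalized counts of the 10 NF-κB genes, 1 panel per gene, with vehicle libraries in blue and corticosterone libraries in red. Each point is a library, the black bar gives mean and SD (n = 3), and every vertical axis starts at 0. The groups lie apart in 8 panels and overlap in those of *Nfkbib* and *Tnfaip3*, and *Nfkbia* shows the widest gap.

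The classical IκB inhibitors bind NF-κB dimers in the cytoplasm. *Nfkbia* (ENSMUSG00000021025, chromosome 12, 55489410 to 55492647 of GRCm38, minus strand, 6 exons) encodes IκBα, the inhibitor that is rapidly degraded and resynthesized when NF-κB is active. Its normalized counts were 1106, 1084 and 1108 with vehicle and 1945, 1827 and 2053 with corticosterone. The vehicle libraries were nearly level and all corticosterone libraries were far above them. The vehicle mean of 1099 ± 13.5 rose to 1942 ± 113 with corticosterone (SD, n = 3 per group), an increase of 76.7% or 0.82 ± 0.05 (SE) on the log2 scale (limma adjusted p = 8.9e-09). This was the largest change of the 10 genes. Among all 24016 genes tested *Nfkbia* ranked 178 by the size of its p and 6953 by absolute log2 fold change. The second rank counts genes with very few reads, such as *Cxcl5*, which ranked 401 with at most 4 reads in any library. Among genes with a mean normalized count of at least 141.5, the median absolute log2 fold change was 0.13. At least 1071 reads stood behind each value of *Nfkbia*.

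*Nfkbib* (ENSMUSG00000030595, chromosome 7, 28758251 to 28767512, minus strand) encodes IκBβ, a second inhibitor of the same type that is degraded more slowly. Its normalized counts were 315, 280.2 and 291 with vehicle and 288, 292 and 274 with corticosterone, so the groups overlapped. The log2 fold change was -0.05 with a 95% interval from -0.23 to 0.13 (limma adjusted p = 0.76). An increase of the size seen in *Nfkbia* lies outside that interval. Some exonic bases of *Nfkbib* are shared with genes on the opposite strand, 314 with *Ccer2* and 42 with *Sirt2*. Mean normalized counts with vehicle and corticosterone were 0 and 1.07 for *Ccer2* and 1333 and 1473 for *Sirt2*. The use of strand in counting is not given in the sources used here.

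*Nfkbie* (ENSMUSG00000023947, chromosome 17, 45555703 to 45563169, plus strand) encodes IκBε, a further classical inhibitor. It moved the opposite way to *Nfkbia*, with 579.8, 533 and 507 with vehicle and 415, 472 and 431 with corticosterone. All corticosterone libraries were below all vehicle libraries, but the gap between the groups was small beside their spread. The vehicle mean of 540.0 ± 36.9 fell to 439 ± 29.0 with corticosterone (SD, n = 3 per group), -0.30 ± 0.08 (SE) on the log2 scale (limma adjusted p = 0.011). The call was lost without vehicle replicate 1 (adjusted p = 0.073), corticosterone replicate 1 (0.076) or corticosterone replicate 3 (0.078).

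A ratio of 2 genes within a library does not depend on the size factor of that library, but it is not corrected for gene length. *Nfkbia* reads exceeded *Nfkbie* reads 1.91-, 2.03- and 2.19-fold with vehicle and 4.68-, 3.87- and 4.76-fold with corticosterone. The ratio of *Nfkbia* to *Nfkbib* was 3.73 ± 0.189 with vehicle and 6.84 ± 0.622 with corticosterone (SD, n = 3 per group). The ratio of *Nfkbia* to *Rela*, the inhibitor and the subunit it is best known to bind, was 0.501 ± 0.0383 with vehicle and 0.977 ± 0.0285 with corticosterone (SD, n = 3 per group). For each of these 3 ratios the groups did not overlap (two-sided exact permutation p = 0.1, the lower limit of a design with 3 per group). For *Nfkbie* and *Rela* this follows from the libraries of each gene, which were all below as those of *Nfkbia* were all above. The 3 ratios share *Nfkbia* and are not independent of each other.

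The atypical IκB proteins act in the nucleus, where they bind subunits that lack an activation domain and change which target genes are transcribed. *Nfkbiz* (ENSMUSG00000035356, chromosome 16, 55811375 to 55838899, minus strand) encodes IκBζ, a cofactor for genes such as those of IL-6 and lipocalin. Its normalized counts were 455, 489 and 456 with vehicle and 525, 619 and 556 with corticosterone. All corticosterone libraries were above all vehicle libraries, with more spread among them. The vehicle mean of 467 ± 19.5 rose to 567 ± 47.7 with corticosterone (SD, n = 3 per group), 0.28 ± 0.07 (SE) on the log2 scale (limma adjusted p = 0.015). The call was lost when vehicle replicate 1 (adjusted p = 0.075), vehicle replicate 3 (0.11), corticosterone replicate 2 (0.099) or corticosterone replicate 3 (0.073) was left out.

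*Bcl3* (ENSMUSG00000053175, chromosome 7, 19808462 to 19822770, minus strand) encodes a nuclear partner of the *Nfkb1* and *Nfkb2* products. It had 139, 155 and 174 with vehicle and 110.3, 135 and 136 with corticosterone, the least of the 10 genes in normalized counts. It shares 161 exonic bases with *Gm16175* on the opposite strand. The groups did not overlap, yet the highest corticosterone and lowest vehicle libraries nearly touched. The log2 fold change was -0.30 with a 95% interval from -0.58 to -0.02 (limma adjusted p = 0.15), so that the gene did not pass the test over all genes. Within each library the ratio of *Bcl3* to *Nfkbiz* was 0.307, 0.317 and 0.381 with vehicle and 0.210, 0.218 and 0.244 with corticosterone. These ratios did not overlap between the groups (two-sided exact permutation p = 0.1, the lower limit here). That was fixed in advance, since every corticosterone library was below for *Bcl3* and above for *Nfkbiz*, and it adds nothing on *Bcl3* alone.

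Among the subunits, *Rela* and *Relb* encode proteins with an activation domain, whereas *Nfkb1* and *Nfkb2* encode precursors that are cut to DNA-binding subunits and act as inhibitors until then. *Rela* with the product of *Nfkb1* forms the classical dimer, and *Relb* with that of *Nfkb2* the dimer of the alternative pathway. Transcripts of both genes of the alternative pair fell. *Relb* (ENSMUSG00000002983, chromosome 7, 19606217 to 19629438, minus strand) had normalized counts of 468, 491 and 418 with vehicle and 297, 336 and 306 with corticosterone. Every corticosterone library was well below every vehicle library. The vehicle mean of 459 ± 37.3 fell to 313 ± 20.5 with corticosterone (SD, n = 3 per group), -0.55 ± 0.08 (SE) on the log2 scale (limma adjusted p = 1.4e-04) and the largest fall of the 10 genes. Omitting any single library left *Relb* at -0.62 to -0.50 on the log2 scale and kept its call.

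*Nfkb2* (ENSMUSG00000025225, chromosome 19, 46304320 to 46312385, plus strand) had 2442, 2317 and 2364 with vehicle and 1956, 1959 and 1988 with corticosterone. The corticosterone libraries were close together and all below the vehicle libraries. The vehicle mean of 2375 ± 63.3 fell to 1968 ± 17.6 with corticosterone (SD, n = 3 per group), -0.27 ± 0.04 (SE) on the log2 scale (limma adjusted p = 2.9e-04). *Nfkb2* shares 299 exonic bases with *Psd* and 531 with AC114539.1, both on the opposite strand. *Psd* also fell, from 566 to 348 (log2 fold change -0.70, limma adjusted p = 1.3e-05), and without knowing whether strand was used its reads in the shared bases cannot be told apart from those of *Nfkb2*.

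*Nfkb1* (ENSMUSG00000028163, chromosome 3, 135584655 to 135691547, minus strand) went the other way, with 2114, 2050.0 and 2086 with vehicle and 2379, 2399 and 2409 with corticosterone. Both groups were tight and clearly apart. The vehicle mean of 2083 ± 32.1 rose to 2396 ± 15.2 with corticosterone (SD, n = 3 per group), or by 0.20 ± 0.04 (SE) on the log2 scale (limma adjusted p = 0.0030). The ratio of *Nfkb1* to *Nfkb2* was 0.866, 0.885 and 0.882 with vehicle and 1.22, 1.22 and 1.21 with corticosterone. The ratios did not overlap between the groups (two-sided exact permutation p = 0.1, the lower limit here), as the opposite shifts of both genes required. They compare reads without regard to gene length. Per kb of all annotated exons, *Nfkb2* was above *Nfkb1* with vehicle (518 and 173) and with corticosterone (429 and 199). Per kb of the longest transcript, *Nfkb2* was above with vehicle (617 and 502) and *Nfkb1* with corticosterone (577 and 512).

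*Rela* (ENSMUSG00000024927, chromosome 19, 5637483 to 5648130, plus strand) had 2089.6, 2370.3 and 2148 with vehicle and 1965, 1934 and 2059.7 with corticosterone. The groups did not overlap, but the lowest vehicle and highest corticosterone libraries were close. The log2 fold change was -0.15 with a 95% interval from -0.26 to -0.04 (limma adjusted p = 0.072). *Rela* did not pass, although edgeR gave it an adjusted p of 0.040 with the same estimate of -0.15. The ratio of *Relb* to *Rela* was 0.209 ± 0.0147 with vehicle and 0.158 ± 0.0139 with corticosterone, without overlap (SD, n = 3 per group, two-sided exact permutation test, p = 0.1). The ratio of *Nfkb2* to *Rela* overlapped between the groups, at 1.08 ± 0.0969 and 0.991 ± 0.0242 (SD, n = 3 per group, two-sided exact permutation test, p = 0.3). The remaining subunit gene, *Rel*, which is best known in lymphoid cells, had a log2 fold change of -0.09 (limma adjusted p = 0.62), and *Nfkbil1*, an IκB-like gene, one of -0.02 (adjusted p = 0.92).

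*Tnfaip3* (ENSMUSG00000019850, chromosome 10, 19000910 to 19015657, minus strand) encodes a ubiquitin-editing enzyme that switches off signalling from TNF and Toll-like receptors upstream of the IκB kinase. Its normalized counts were 264, 199 and 255 with vehicle and 199, 207 and 219 with corticosterone. Of the vehicle libraries, replicate 2 lay with the corticosterone libraries and the other two above them. The log2 fold change was -0.19 with a 95% interval from -0.43 to 0.04 (limma adjusted p = 0.31). The result depends on vehicle replicate 2, since without it the log2 fold change was -0.32 and the adjusted p 0.045.

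**Figure D3:**
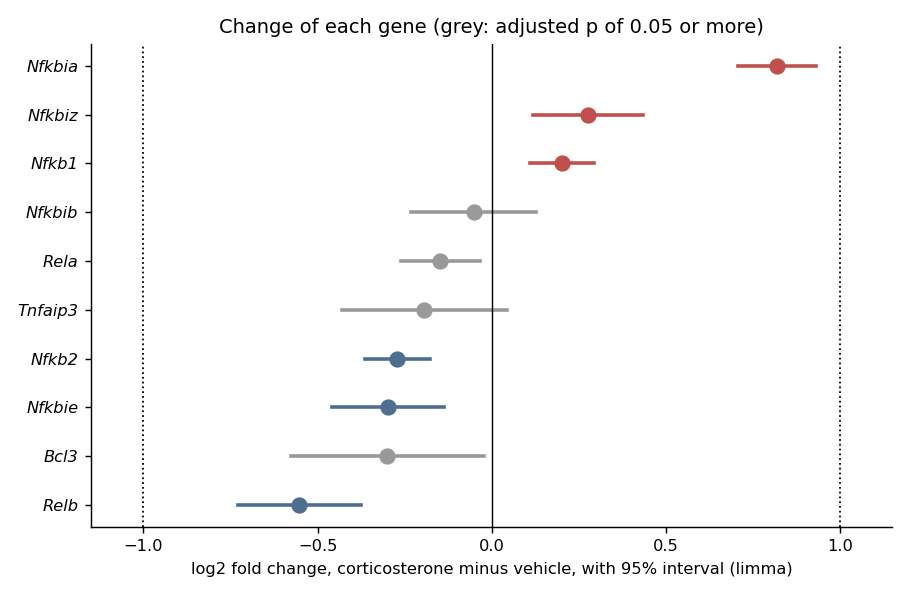
Log2 fold change of each gene after corticosterone against vehicle, with its 95% interval from limma, in order of size. Red genes rose and blue genes fell at an adjusted p under 0.05, grey genes did not pass, and the dotted lines mark a log2 fold change of 1 in either direction. All 10 intervals lie within the dotted lines, from 0.82 for *Nfkbia* to -0.55 for *Relb*.

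To compare levels between genes, normalized counts were divided by the length of all annotated exons of a gene. With vehicle, the transcripts at the highest level were those of *Rela*, with 717 ± 48.2 normalized counts per kb, *Nfkbia*, with 683 ± 8.37, and *Nfkb2*, with 518 ± 13.8 (SD, n = 3 per group). *Rela* and *Nfkbia* overlapped in their vehicle libraries. With corticosterone *Nfkbia* was at the top of the order with 1206 ± 70.4 per kb, apart from *Rela* with 647 ± 21.3. *Nfkbie* (177 ± 12.1), *Nfkb1* (173 ± 2.66), *Nfkbib* (136 ± 8.14) and *Relb* (118 ± 9.61) followed with vehicle, and the libraries of *Nfkbie* and *Nfkb1* overlapped. *Nfkbiz* had 93.0 ± 3.89, *Bcl3* 63.1 ± 6.94 and *Tnfaip3* 33.2 ± 4.90 per kb with vehicle, the lowest of the 10. The order rests on the annotation, since the annotated exons of *Nfkb1* span 12061 bases in all while its longest transcript has 4149, and with the latter its vehicle level was 502 per kb.

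**Figure D4:**
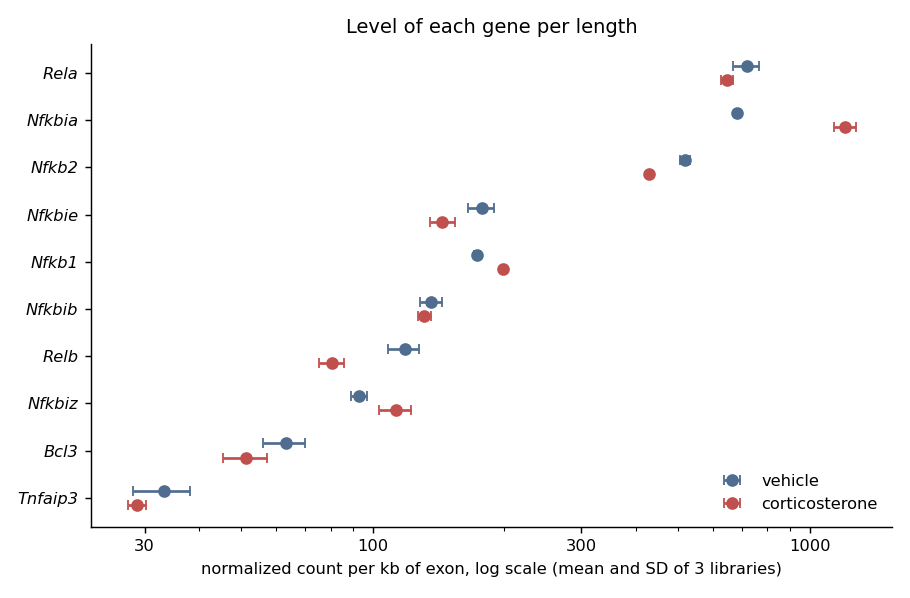
Normalized count per kb of annotated exon for each gene with vehicle (blue) and corticosterone (red), on a log axis, as mean and SD of 3 libraries. Genes are in order of their vehicle level. *Nfkbia* moves from 683 to 1206 per kb, past *Rela*, and *Relb* drops from 118 to 80.5 per kb.

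The genes around these components were taken from lists of the pathway. Over all genes tested 8.49% were higher and 8.2% lower, and 17.4% and 15.6% among genes with a mean of at least 141.5. The counts in each list are to be read beside these shares, and no list was tested as a set. Of 19 listed receptors and ligands, 15 were measured, of which 3 were higher and 0 lower, with a median log2 fold change of 0.06. *Tnfrsf1b*, which encodes the TNF receptor that lacks a death domain, rose from 167 ± 27.6 to 301 ± 49.6 (SD, n = 3 per group), 0.85 on the log2 scale (limma adjusted p = 2.1e-04). *Tnfrsf12a*, the receptor for TWEAK, rose by 0.28, and *Tnfsf11*, which encodes RANKL, by 1.38 on the log2 scale. The call of *Tnfsf11*, with 17 to 50 reads per library, was lost without corticosterone replicate 3. The main TNF receptor *Tnfrsf1a* had a log2 fold change of 0.06 (limma adjusted p = 0.39) and the IL-1 receptor *Il1r1* one of 0.03 (adjusted p = 0.86). *Il1rap* (0.21) and *Tlr2* (-0.19) did not pass. *Tnf* itself had at most 2 reads in any library, so that a change was not detectable at this depth.

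Of 25 measured adaptors and kinases, 3 were higher and 4 lower, with a median of 0.03. The shares over all genes tested were 8.49% and 8.2%, or 17.4% and 15.6% at a mean of at least 141.5. Genes of the IκB kinase complex did not pass, with log2 fold changes of 0.00 for *Chuk*, 0.09 for *Ikbkb* and 0.07 for *Ikbkg*, nor did *Map3k14*, the kinase of the alternative pathway, with 0.05. *Traf3*, which marks that kinase for degradation, fell from 1316 ± 16.3 to 1058 ± 54.7 (SD, n = 3 per group), -0.32 on the log2 scale (limma adjusted p = 4.2e-04). Around the kinase TAK1, *Map3k7*, which encodes it, rose by 0.25, whereas *Tab2*, which encodes its ubiquitin-binding partner, had a log2 fold change of -0.26 (limma adjusted p = 4.5e-04 and 4.2e-04). *Myd88*, the adaptor of Toll-like and IL-1 receptors, rose with a log2 fold change of 0.45, and its vehicle libraries spread from 362 to 502. Its call was lost without corticosterone replicate 3. *Traf5*, *Birc3* and *Irak1*, with log2 fold changes of -0.34, -0.33 and 0.13, lost their calls in 4, 5 and 5 of 6 single-library omissions.

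Of 19 other negative regulators, 2 were higher and 1 lower, with a median of 0.05. All genes tested gave 8.49% and 8.2%, and those with a mean of at least 141.5 gave 17.4% and 15.6%. *Pdlim2*, whose product targets nuclear RELA for degradation, fell from 7695 ± 50.5 to 5179 ± 122 (SD, n = 3 per group), -0.57 ± 0.04 (SE) on the log2 scale (limma adjusted p = 1.3e-08). *Tax1bp1*, which encodes an adaptor of the TNFAIP3 protein, rose from 3653 ± 175 to 4838 ± 74.6 (SD, n = 3 per group), 0.41 on the log2 scale (limma adjusted p = 3.8e-06). *Zc3h12a*, which encodes an RNase that degrades cytokine transcripts, rose by 0.38 on the log2 scale and lost its call in 4 of 6 single-library omissions. The deubiquitinase gene *Cyld* (0.11) and the TNFAIP3 partner gene *Tnip1* (-0.15) did not pass, nor did *Nlrc5* (-0.45) and *Nkiras1* (-0.28).

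Of 28 listed genes known as NF-κB targets, 20 were measured, of which 5 were higher and 5 lower. Beside this stand 8.49% and 8.2% of all genes tested, and 17.4% and 15.6% at a mean of at least 141.5. *Ccl20*, *Cxcl1*, *Cxcl2*, *Csf2*, *Saa3*, *Nos2*, *Mmp3* and *Bcl2a1b* were not analysed here. The measured targets had a median log2 fold change of 0.01. It was 0.02 with *Lcn2* at its bound and *Cxcl5*, which had at most 4 reads in any library, at 0. The genes that fell were the chemokine genes *Ccl2* (-2.12) and *Ccl7* (-0.96), the protease genes *Mmp9* (-1.40) and *Plau* (-0.71), and *Ier3* (-0.56), an early response gene. *Ccl7*, with 16 to 80 reads per library, lost its call in 5 of 6 single-library omissions. The genes that rose were the survival gene *Bcl2l1* (0.83), *Gadd45b* (0.65), which encodes a stress sensor, the adhesion molecule gene *Vcam1* (0.39), *Fth1* (0.25), which encodes a ferritin chain, and *Lcn2*. *Lcn2* had no reads with vehicle and was at least 6.78-fold higher against a floor of 3 reads per library. *Il6* had 4.05, 9.26 and 16.6 with vehicle and 1.07, 3.31 and 2.56 with corticosterone, without overlap but from 1 to 16 reads per library (limma adjusted p = 0.11). *Csf1*, *Sod2* and *Ptgs2* did not pass, with log2 fold changes of 0.03, 0.09 and -0.06. Most of these genes are known to be controlled by other factors as well.

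**Figure D5:**
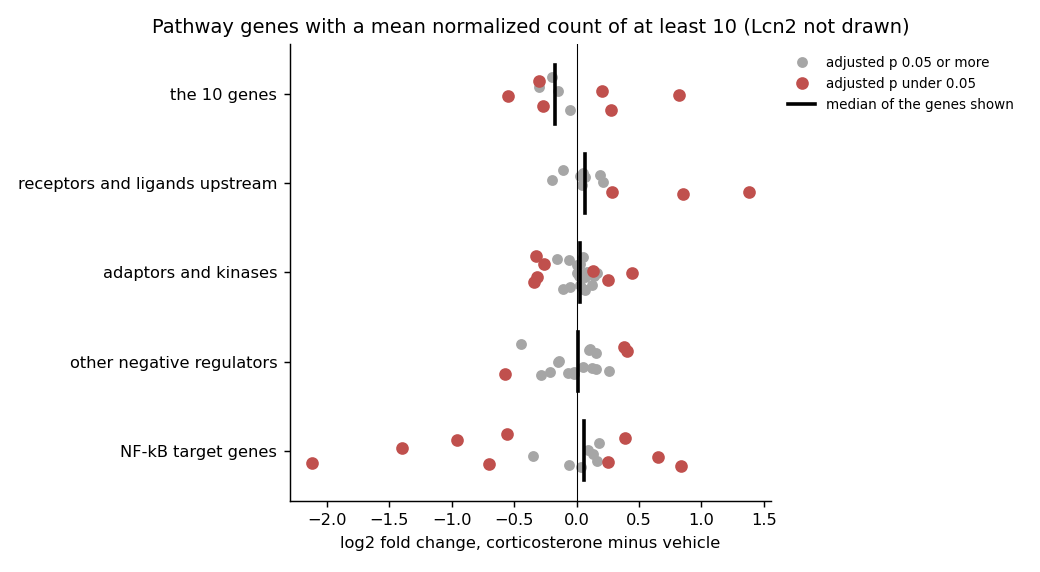
Log2 fold changes of the 10 NF-κB genes and of 4 lists of pathway genes with a mean normalized count of at least 10, 1 point per gene. Red points had an adjusted p under 0.05, grey points did not, and black bars are medians of the genes shown, while *Lcn2*, without reads in the vehicle libraries, is not drawn. The medians lie between -0.17 and 0.06, and the targets spread the most, from -2.12 for *Ccl2* to 0.83 for *Bcl2l1*.

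The genes whose values followed *Nfkbia* most closely over the 6 libraries, among 11480 genes with a mean normalized count of at least 50, were *Vps13c*, *Clic4* and *Hhat*, with Pearson correlations of log2 values of 0.999 each. For *Relb* they were *1810043G02Rik* (0.999), *Cpeb2* (0.996) and *Gnb2* (0.995). The points share their libraries and fall into the 2 treatments, and 955 and 375 genes had a correlation of at least 0.95 with *Nfkbia* and *Relb*, so these genes stand for many with a like order of the libraries.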

How the data were processed

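RNA-seq libraries of 3 vehicle-treated and 3 corticosterone-treated MC3T3-E1 cultures were compared. The deposited table, named FPKM by the authors, holds 1 signal value for each gene in each library, and 100% of the values are whole multiples (tolerance 0.02 reads) of 1 step per library. It thus holds counts scaled by the authors with a size factor per library, and the reads were recovered from the steps. The submitters' processing notes name mm10. The aligner, the counter and the use of strand are not given in the sources used here. Such scaling leaves gene length uncorrected, so levels of different genes were compared per kb only.

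The main test was limma 3.58.1 (R 4.3.3, variance trend) on log2(value + 0.1). A minimum mean of 0.1 removed no gene, and p-values were adjusted by Benjamini-Hochberg over 24016 genes. Fold changes are on that scale. For ratios and single genes a two-sided exact permutation test was used. Alternatives were edgeR 4.0.16 and DESeq2 1.42.0 on the recovered reads, other pseudocounts, filters and scalings, the replicate block, and leaving out each library. The main limma fit and the edgeR and DESeq2 fits without the replicate block were checked beforehand with simulated data. The other alternatives were not checked in this way. Changes as small as those of the NF-κB genes were not part of that check. P-values measure the spread between cultures of 1 clone. In limma the variance of each gene is drawn toward the trend over all genes, so this spread is partly that of other genes. The 95% intervals come from the same fit and measure the same spread, while the floor of 3 reads covers counting error only.

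Symbols matched 23983 identifiers (GENCODE, GRCm38), exon lengths and 31-base stretches shared with other genes came from the same annotation, and promoters from RefSeq (GRCm38.p6). Of the 31-base stretches, 16.3% in *Nfkb2*, 14.0% in *Nfkbib* and at most 4.22% in the other 8 genes also lie in another gene's transcripts. The 10 genes and the pathway lists were chosen with earlier results of these data known. The genes named are all 10 and, in each pathway list, the called genes and some genes of known role. Called or not, the genes of each pathway list with the largest absolute log2 fold changes (mean of at least 10) are also named. The 3 genes most correlated with each of the 2 genes that changed most are named too.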

Additional observations from a re-analysis of the deposited data

How the results depend on the processing

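Each of the 10 NF-κB genes kept the sign of its log2 fold change in all 20 alternatives, and *Nfkbia* and *Relb* kept an adjusted p under 0.05 in each of them. Leaving out 1 library gave log2 fold changes between 0.78 and 0.86 for *Nfkbia*, -0.62 and -0.50 for *Relb*, -0.29 and -0.25 for *Nfkb2*, 0.19 and 0.21 for *Nfkb1*, -0.35 and -0.24 for *Nfkbie*, 0.21 and 0.33 for *Nfkbiz*, and -0.32 and -0.12 for *Tnfaip3*. With 1 library left out, 2 to 3 of the 10 genes were higher and 2 to 4 lower, of 1419 to 1873 genes higher and 1148 to 1611 lower in all, and 204 to 321 genes passed the fold cut-off and were lower.

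Without a variance trend 873 genes were higher and 760 lower, and of the 10 genes 1 was higher and 1 lower. *Nfkbie* (-0.30, adjusted p = 0.15), *Nfkbiz* (0.28, 0.17), *Nfkb1* (0.20, 0.11) and *Nfkb2* (-0.27, 0.062) then did not pass. Upper-quartile scaling, which set the median of all genes at -0.08, gave 1349 genes higher and 2595 lower (34.2% of the calls higher, against 50.9% as deposited and 40.3% with the same total), of the 10 genes 1 higher (*Nfkbia*) and 4 lower, and weaker values for *Nfkbiz* (0.21, adjusted p = 0.11) and *Nfkb1* (0.13, 0.095). *Rela* passed with a mean of at least 10 (-0.15, adjusted p = 0.042), a robust prior (-0.15, 0.025), quantile normalization (-0.18, 0.025), upper-quartile scaling (-0.22, 0.023), the same total (-0.19, 0.017), edgeR (-0.15, 0.040) and edgeR with the replicate block (-0.15, 0.028). The replicate block in limma changed no call of the 10 genes. With the replicate block in DESeq2, 1254 genes were lower, 198 of them past the fold cut-off, and *Nfkbie* (-0.30, adjusted p = 0.084) and *Nfkbiz* (0.28, 0.087) did not pass. Same-numbered libraries did not deviate together (correlations across 13880 genes of -0.021, 0.014 and 0.021), and the labels do not pair them. Per kb of the longest transcript, vehicle levels were 697 for *Nfkbia*, 113 for *Nfkbiz*, 84.4 for *Bcl3*, 502 for *Nfkb1*, 617 for *Nfkb2*, 811 for *Rela*, 140.2 for *Relb* and 38.7 for *Tnfaip3*. The cause of these shifts was not tested. Of 39 called genes of the lists, 20 kept their call in all alternatives that gave an adjusted p and 7 lost it only without the variance trend.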
